A study of Drosophila melanogaster with 6 samples.

Results

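The caspase, Bcl-2 and IAP cell death genes of Drosophila melanogaster were followed in whole prepupae of a Sox14 mutant and its control strain. The group holds 10 genes, Dronc, Strica, Dark, Dcp-1, Dredd, Damm, Diap2, Bruce, Buffy and Debcl. They were chosen by name, with earlier results of these data known. Every probe set that the platform annotation ties to 1 of these genes alone was used. This gave 11 probe sets, 2 of them for Dark, out of 18769 tested, and 10 of 11982 genes with a probe set of their own.

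The mutant animals were w1118; sox14L1/sox14L1, homozygous for the L1 allele of Sox14, and the control animals were w1118. The w1118 label was common to both genotypes, which does not by itself show that the rest of the background was shared. Sox14 is a gene for a DNA-binding protein of the HMG-box class that regulates transcription. Animals raised at 25C were taken at 0 h, when the puparium forms, and each of the 6 Affymetrix arrays measured RNA from 10 whole prepupae, with 3 arrays per genotype. The labels give no sex, and since they name no separate cultures for the 3 samples of a genotype, p-values here reflect only how far the samples spread, which may be technical.

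In flies, programmed cell death runs through caspases, proteases made as inactive precursors. Dronc, the initiator caspase, is switched on by the Apaf-1 homologue Dark and then cleaves effector caspases such as Dcp-1. IAP proteins hold caspases in check until proteins of the Reaper, Hid and Grim type displace them, and Bcl-2 family proteins act upstream at membranes. At metamorphosis the steroid ecdysone triggers the death of the larval salivary glands, in which caspases take part, and Dronc is known as an ecdysone-induced gene.

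As a check of the genotypes, the Sox14 probe set read 10.34, 10.67 and 10.73 on the mutant arrays and 11.40, 11.60 and 11.72 on the control arrays, as log2 RMA values, and fell by 0.99 ± 0.13 (SE; adjusted p = 0.00101 in limma). The sources used here do not state the position of the L1 lesion, so whether this probe set covers it is unknown. The probe set is of a type named as shared between transcripts of more than 1 gene, although the annotation lists Sox14 alone. Control probe sets set the first mutant array apart, with an 18S rRNA mean of 12.18 and a 3' minus 5' difference for actin of 1.77. On the other 5 arrays these lay between 7.56 and 7.94 and between 0.54 and 0.88. The samples held whole animals, and markers of salivary gland, fat body, midgut, muscle, nervous system, hemocytes and testis were all detected on these arrays. The summed level of 6 midgut markers was 15.13 to 15.55 in the mutant and 13.61 to 13.74 in the control (log2 of the summed signal). Of the 6, 4 were called higher, namely alphaTry (0.83), betaTry (5.82), epsilonTry (6.66) and Mal-A1 (2.83). These 4 lie on chromosome arm 2R, as does Sox14. Jon25Bi (0.27) and LManV (-0.09), on 2L, were not called. The sum of 3 muscle markers was 11.03 to 11.34 in the mutant and 9.35 to 9.64 in the control, with all 3 called higher. That of 3 fat body markers was 16.56 to 16.57 in the mutant and 16.83 to 16.90 in the control. Here Fbp2 was called lower (-0.86), while Lsp2 (-0.21) and Fbp1 (0.004) were not called. The sums of 4 hemocyte markers (10.58 to 10.66 in the mutant, 9.90 to 10.34 in the control) and of 6 genes of the prepupal stage (14.93 to 14.99 in the mutant, 14.69 to 14.77 in the control) also did not overlap. Called higher were NimC1 (0.50) and eater (1.48) of the first group and ImpL2 (0.96) of the second. The others changed by 0.01 (Pxn) to 0.41 (Hml and br) and were not called. Such sums of signal follow their brightest genes. The sums of 7 salivary gland markers, at 14.45 to 16.55 in the mutant and 16.15 to 16.45 in the control, did overlap. The mutant arrays read 16.55, 14.45 and 16.42 in this sum, and the second alone lay below the controls. Of these 7 markers Sgs4 was called higher (2.03, adjusted p = 0.0295 in limma) and none lower, while 5 had a negative change. Nervous system markers summed to 10.28 to 10.54 in the mutant and 10.22 to 10.31 in the control, and testis markers to 12.27 to 12.67 in the mutant and 12.01 to 12.73 in the control, both with overlap. Of the 4 nervous system markers Snap25 was called higher (1.34) and nSyb lower (-0.36). Of the 4 testis markers dj was called higher (0.67), and the rest of both groups were not called. In the control arrays Mal-A1, Mlc2 and LManV lay in the arrays' low range, below 5.73 to 5.99 depending on the array, and aly did so on all 6 arrays. The part of these marker differences in the changes of the cell death genes was not tested, and in whole animals fewer cells of a type and less RNA per cell cannot be told apart.

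Of the 10 cell death genes, 5 were modestly lower in the mutant and none rose at an adjusted p under 0.05 in limma. Those that fell were the caspase genes Dronc and Strica, both Bcl-2 family genes, Buffy and Debcl, and the IAP gene Diap2. They stood at 70.3% to 78.0% of the control signal. Among all genes, with 1 probe set per gene, 13.4% were called lower and 11.3% higher. The median change of the 10 was -0.36, against -0.03 over all 11982 genes. Since the 10 were chosen with earlier results of these data known, such comparisons with all genes are descriptive only. In 6 of the 10 genes every mutant array lay below every control array (24.5% of all genes), and in 1, Dredd, every mutant array lay above (18.3% of all genes). Only Strica, Buffy and Damm differed by 0.5 or more on the log2 scale in the brighter or sole probe set, and at a threshold of 0.01 none of the 10 was called (7.04% of all genes were called lower), while 8 had an unadjusted p under 0.05, as did 38.4% of all genes.

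**Figure D1:**
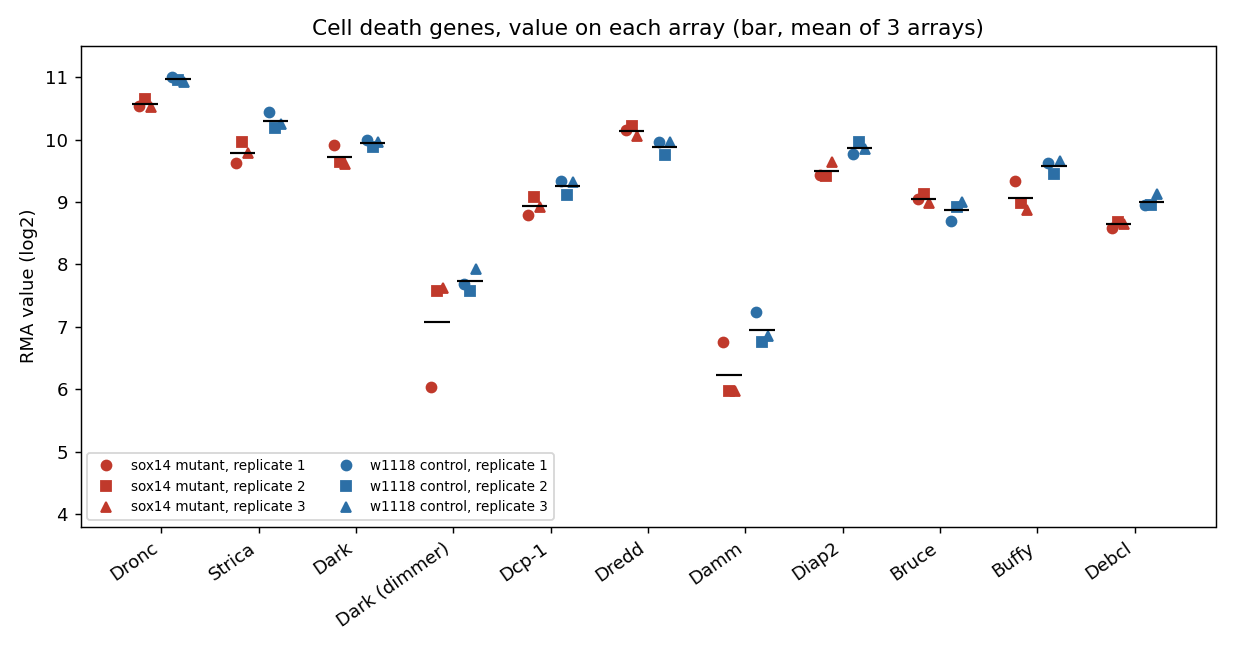
Log2 RMA value of each probe set (x axis) on every array. Red points are the 3 sox14 mutant arrays and blue points the 3 w1118 control arrays, with the marker shape giving the replicate and black bars the group means. Dronc, Strica, Dcp-1, Diap2, Buffy and Debcl have all red points below all blue points, Dredd has all red points above, and the first mutant array (red circle) stands apart in the dimmer Dark probe set, at 6.03, and in Damm, at 6.75.

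Dronc, whose protein is the homologue of mammalian caspase-9 and carries a CARD domain that binds Dark, lies on chromosome arm 3L. Its probe set read 10.54, 10.66 and 10.52 on the mutant arrays, against 11.00, 10.96 and 10.93 on the control arrays. The groups did not overlap and both were tight, with an SD of 0.08 in the mutant and 0.04 in the control. Dronc fell by 0.39 ± 0.09 (SE; adjusted p = 0.0142), to 76.1% of the control signal (95% confidence interval of the log2 change -0.59 to -0.20). The call was lost without the third mutant array (adjusted p = 0.0540) or the first control array (adjusted p = 0.0515), with changes of -0.37 in both cases.

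Dark, the adaptor that assembles with Dronc into the apoptosome, has 2 probe sets and neither was called. The brighter one read 9.92, 9.64 and 9.60 in the mutant, against 10.00, 9.89 and 9.96 in the control. The first mutant array lay among the controls and the other two below them. The change was -0.23 ± 0.11 (adjusted p = 0.200, interval -0.47 to 0.02). The dimmer probe set, of a type designed to read several transcripts of a gene, gave 6.03, 7.58 and 7.62 in the mutant and 7.68, 7.58 and 7.93 in the control. Here the first mutant array alone was far below the rest, the change was -0.65 ± 0.38 (adjusted p = 0.293), and without that array it was -0.13. In the brighter probe set leaving out the same array gave -0.33 (adjusted p = 0.0634), and the mean of both probe sets over all 6 arrays changed by -0.44 (adjusted p = 0.0986). Whether Dark and Dronc changed by different amounts was not tested.

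Strica, a caspase with a long prodomain rich in serine and threonine, gave 9.63, 9.96 and 9.78 in the mutant, against 10.44, 10.19 and 10.25 in the control. The groups did not overlap. It fell by 0.50 ± 0.12 (adjusted p = 0.0172), to 70.5% of the control signal. It was not called without the first mutant array (adjusted p = 0.0558), the third mutant array (0.0512) or the first control array (0.0602), and its change over the 6 fits with an array left out ran between -0.59 and -0.43.

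Dcp-1 encodes an effector caspase that cuts cellular proteins and also acts in starvation-induced autophagy of the ovary. Its values were 8.79, 9.08 and 8.91 in the mutant and 9.34, 9.11 and 9.33 in the control, without overlap, although the second mutant array and the second control array differed by little. The change of -0.33 ± 0.11 did not pass the test (adjusted p = 0.0771, interval -0.59 to -0.07). With each array centred on its median it was -0.37 and passed (adjusted p = 0.0483).

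Damm, a further caspase gene, had the most negative change among the brighter or sole probe sets of the 10 genes and also the widest spread. It read 6.75, 5.97 and 5.96 in the mutant and 7.24, 6.75 and 6.86 in the control. The first mutant array was level with the second control array, while the other two mutant arrays lay below every control. The change was -0.72 ± 0.22 (adjusted p = 0.0559), and without the first mutant array it was -0.98 ± 0.15 and passed the test (adjusted p = 0.00517). It also passed with trended robust variance, array weights, median centring, the dimmest probe sets left out or probe sets averaged per gene (adjusted p 0.0105 to 0.0476). The mutant values lay close above the arrays' low range, where RMA compresses differences.

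Dredd, the caspase-8 homologue, acts chiefly in the Imd immune pathway, where it cleaves Imd and the NF-kappaB factor Relish. Unlike the other caspase genes it read higher in the mutant, with 10.15, 10.22 and 10.05 in the mutant against 9.96, 9.75 and 9.95 in the control. Every mutant array lay above every control array, but the change of 0.25 ± 0.10 did not pass (adjusted p = 0.124, interval 0.03 to 0.48). The call was not made in any of the 6 fits with an array left out (adjusted p 0.139 to 0.329).

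**Figure D2:**
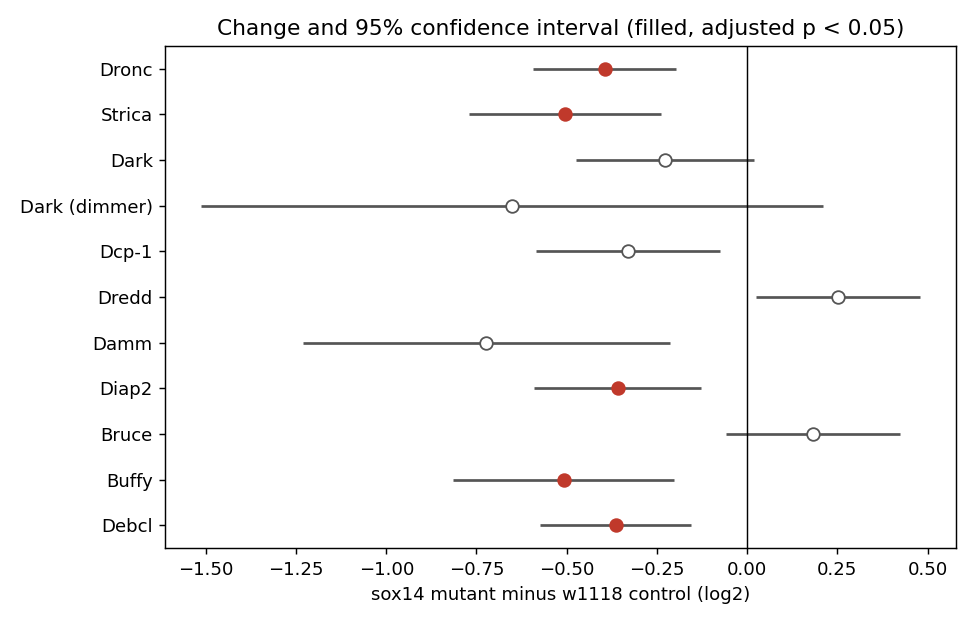
Change in the sox14 mutant relative to the w1118 control (x axis, log2) for each probe set (y axis), as a point with its 95% confidence interval from limma. Filled points have an adjusted p under 0.05. The 5 called genes lie between -0.51 and -0.36, the dimmer Dark probe set and Damm have the widest intervals, and Dredd and Bruce are the only genes to the right of 0.

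The Bcl-2 family has a pair of members in the fly, and both fell. Buffy, described mostly as a pro-survival member, read 9.34, 8.98 and 8.88 in the mutant and 9.62, 9.45 and 9.65 in the control. All 3 mutant arrays were below all 3 controls, and the first mutant array was the nearest to them. Buffy fell by 0.51 ± 0.13 (adjusted p = 0.0303), to 70.3% of the control signal. Without the first mutant array its change was -0.65 (adjusted p = 0.00701). The call was lost without the second mutant (adjusted p = 0.105), the third mutant (0.0961), the first control (0.0871) or the third control array (0.0975).

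Debcl, which is described as a pro-death member, read 8.59, 8.68 and 8.65 in the mutant, against 8.95, 8.95 and 9.12 in the control. The groups were apart and each was tight (SD 0.05 in the mutant and 0.10 in the control). Debcl fell by 0.36 ± 0.09 (adjusted p = 0.0245), to 77.7% of the control signal. Of the 6 fits with an array left out, the one without the second control array kept the call (adjusted p = 0.0383). The other 5, without any 1 of the mutant arrays, the first control array or the third control array, gave adjusted p-values of 0.0506 to 0.0727 and changes of -0.39 to -0.31.

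The 2 IAP genes measured gave different readings. Diap2, whose protein has BIR and RING domains, binds caspases and ubiquitinates Dredd in Imd signalling, read 9.44, 9.42 and 9.64 in the mutant and 9.77, 9.96 and 9.84 in the control. The groups did not overlap, and Diap2 fell by 0.36 ± 0.10 (adjusted p = 0.0404). Its probe set is of a type named as shared between transcripts of more than 1 gene, although the annotation lists Diap2 alone. The call held without the third mutant array (adjusted p = 0.0360) and was lost without the first mutant (0.113), the second mutant (0.146), the first control (0.0598), the second control (0.107) or the third control array (0.0828), and also with quantile normalisation (0.0539).

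Bruce encodes a giant protein with a BIR domain and a ubiquitin-conjugating domain that restrains cell death. It read 9.05, 9.12 and 8.98 in the mutant and 8.69, 8.92 and 9.00 in the control. The third control array lay within the mutant range, and the change of 0.18 ± 0.11 did not pass (adjusted p = 0.296, interval -0.06 to 0.42). A difference between the changes of Diap2 and Bruce was not tested.

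The number of calls depended on single arrays, while no gene changed sign in these fits. For Dronc, Strica, Dcp-1, Diap2, Buffy, Debcl and Dredd, whose groups did not overlap, leaving out 1 array could not change the sign. Without the first mutant array 3 of the 10 genes were called lower (10.2% of all genes), without the second 2 (9.04%) and without the third 1 (10.6%). Without the first control array 0 were called lower (10.8% of all genes), without the second 4 (11.4%) and without the third 2 (9.88%). None was called higher. In the fit without the first control array, where limma called 0, 7 of the 10 had an unadjusted p under 0.05, as did 35.5% of all genes. Leaving out an array also lowered the share called among all genes, to between 17.2% and 22.7%, against 24.7% with all 6. In every one of these 6 fits 8 of the 10 genes kept a negative change and 2, Dredd and Bruce, a positive one.

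**Figure D3:**
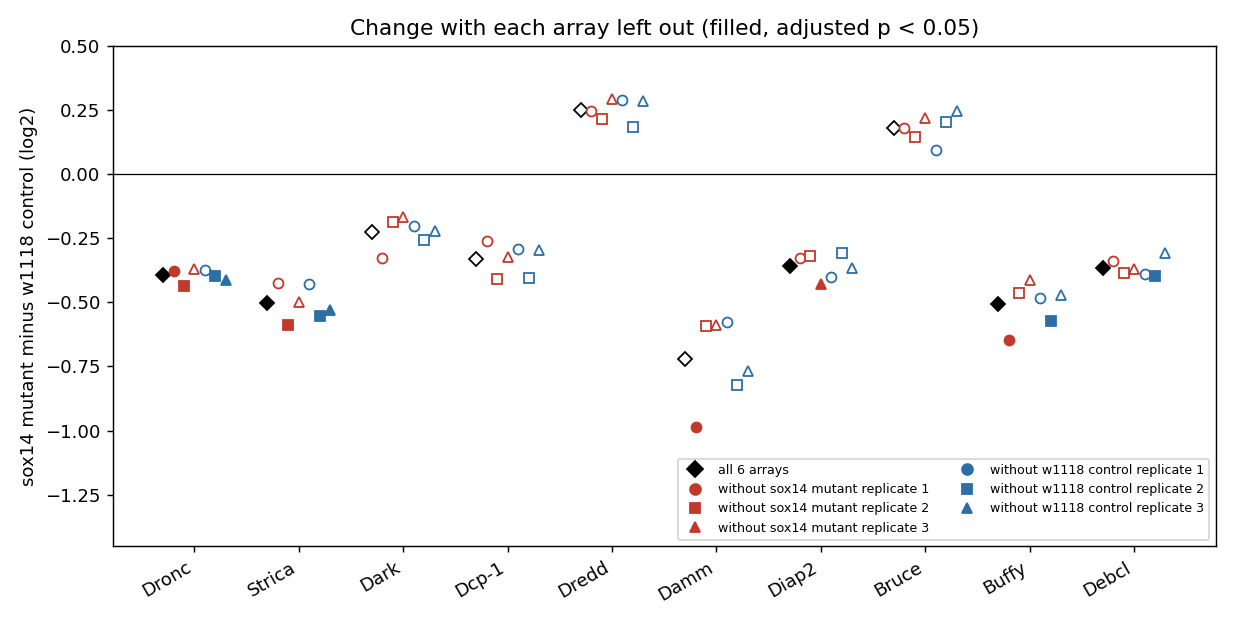
Change in the sox14 mutant relative to the w1118 control (y axis, log2) of the 10 genes (x axis, brighter probe set for Dark) with all 6 arrays (black) and with each mutant array (red) or control array (blue) left out. Filled markers have an adjusted p under 0.05. The changes stay on the same side of 0 in every fit, as they must for genes whose groups do not overlap. Damm spans the widest range, -0.98 to -0.58.

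Of the 10 genes, 7 lie on chromosome arm 2R, as does Sox14, and 4 of these 7 (Strica, Diap2, Buffy and Debcl) were called lower, where 14.2% of the 2427 measured genes of 2R were. Of the 3 on other arms, Dronc on 3L was called lower, while Dredd on the X and Bruce on 3R were not called. Elsewhere than on 2R, 13.3% of genes were called lower. Dcp-1 is the nearest to Sox14, with 95 annotated protein-coding genes between them, and the others on 2R are separated from it by 1037 to 2568. For these 7 genes, and for any other gene of the second chromosome, an effect of Sox14 and differences carried on the mutant chromosome cannot be told apart. The shared w1118 label does not show that the chromosomes of Dronc, Dredd and Bruce are alike in both strains, and this was not tested.

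**Figure D4:**
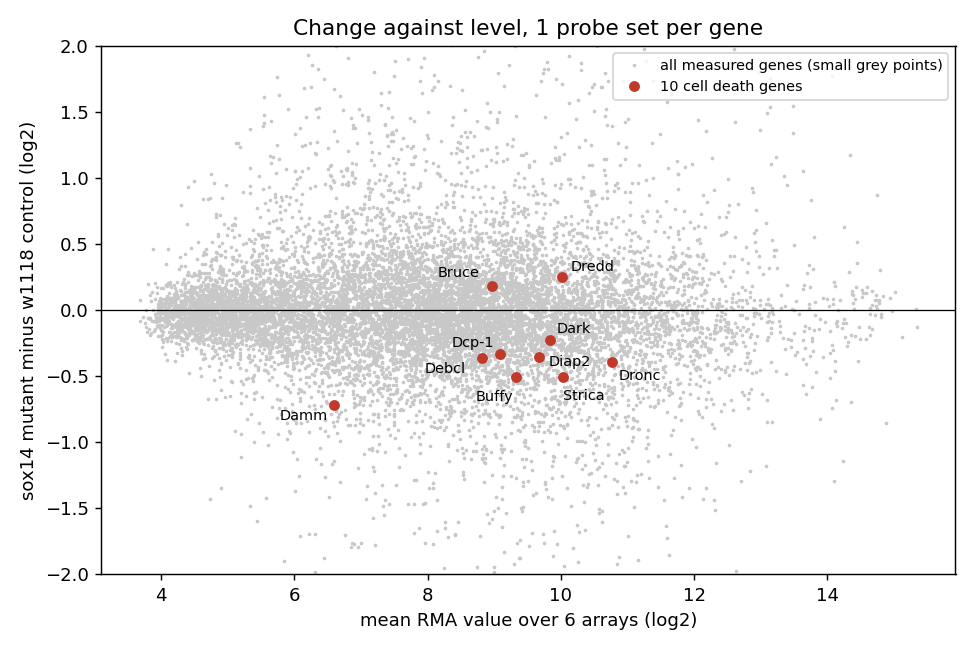
Change in the sox14 mutant relative to the w1118 control (y axis, log2) against the mean value over 6 arrays (x axis, log2) for 1 probe set per gene. Grey points are all measured genes, 203 of which lie outside the range of -2 to 2 that is drawn, and red points are the 10 cell death genes. The 10 lie between -0.72 and 0.25, inside the cloud of other genes.

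Across the other lists the median change was -0.02 for antagonists of IAPs, 0.04 for partners of Dredd, -0.11 for DNA breakdown, -0.12 for engulfment, 0.06 for p53 and JNK signalling, -0.13 for ubiquitin enzymes and 0.29 for ecdysone regulators. These are to be read against -0.03 over all genes and the 13.4% called lower and 11.3% called higher.

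Upstream of the IAPs, the antagonists that free caspases were covered thinly. Of 7 genes in this list 3 were measured, and none was called in limma or had an unadjusted p under 0.05. skl, a Reaper-type protein of the same cluster as rpr, grim and hid, averaged 7.67 ± 0.32 in mutant animals and 7.37 ± 0.39 in control animals (SD, n = 3 each; adjusted p = 0.393). HtrA2, a mitochondrial protease that cleaves Diap1, changed by -0.12 ± 0.14 (adjusted p = 0.649). grim lay in the arrays' low range on all 6 arrays. rpr, hid, Diap1 and Jafrac2 (Prx4) had no probe set of their own and were not analysed here, nor were Drice, Decay and the cytochrome c genes. Of the list of effector caspases and apoptosome partners this left 1 gene, eIF3m (Tango7), whose protein is reported to interact with the Dronc apoptosome. It averaged 12.12 in mutant animals and 12.13 in control animals, with a change of -0.01 ± 0.08 (adjusted p = 0.947).

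Among 8 measured partners of Dredd in the Imd pathway, 2 fell and none rose. casp, the gene of Caspar, which restrains Dredd-dependent cleavage of Relish, read 10.03, 10.20 and 10.26 in the mutant, against 11.40, 11.41 and 11.53 in the control. The groups were far apart, and casp fell by 1.28 ± 0.10 (adjusted p = 4.04e-05). imd, the adaptor that recruits Dredd through Fadd, fell by 0.43 ± 0.10 (adjusted p = 0.0174), a call lost without the third mutant (adjusted p = 0.0632) or the first control array (0.0629). Fadd (-0.05) and Rel (-0.02) were not called. casp and imd, like Diap2, lie on 2R.

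Downstream, 6 genes of DNA breakdown were measured, of which 1 fell and 1 rose. Drep4, the nuclease that caspases release to cut DNA between nucleosomes, read 8.52, 8.51 and 8.23 in the mutant and 9.58, 9.42 and 9.48 in the control. It fell by 1.08 ± 0.11 (adjusted p = 0.000208), to 47.4% of the control signal, in all 3 mutant arrays, and lies on 2L. Drep1, its inhibitor and chaperone, changed by -0.20 ± 0.12 (adjusted p = 0.331). Drep3, a relative with the same CIDE-N domain, rose by 0.48 ± 0.12 in its brighter probe set (adjusted p = 0.0274). Its dimmer probe set, in the low range on all 6 arrays, read the other way (-0.53, adjusted p = 0.0669), and the mean of the 2 gave -0.02. The rise was not called without the second mutant (adjusted p = 0.101), the third mutant (0.0803) or the third control array (0.0678).

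None of 7 measured engulfment genes was called in limma, while 3 had an unadjusted p under 0.05 (38.4% of all genes did). The receptor gene drpr averaged 11.40 in mutant animals and 11.49 in control animals (change -0.09 ± 0.10, adjusted p = 0.612), and ced-6, the gene of its adaptor, 11.84 in the mutant and 12.33 in the control (-0.50 ± 0.16, adjusted p = 0.0703). ced-6 passed with each array centred on its median (adjusted p = 0.0443) and with trended robust variance (0.0476). Of 10 genes of p53 and JNK signalling, 1 fell: lok, the fly Chk2 kinase (-0.40 ± 0.09, adjusted p = 0.0152), a call lost without the second (0.0525) or the third mutant array (0.0579). p53 itself changed by 0.03 ± 0.10 in its brighter probe set (adjusted p = 0.868).

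Of 5 measured ubiquitin enzymes tied to IAPs, 1 fell. This was morgue, whose product promotes the loss of Diap1 (-0.33 ± 0.09, adjusted p = 0.0295), and its call held in 1 of the 6 fits with an array left out, the one without the second control array (adjusted p = 0.0448). The adjusted p was 0.0598 to 0.119 without any 1 of the mutant arrays, the first control array or the third control array. Of 6 ecdysone regulators of larval tissue death, 1 fell, usp, which encodes the partner of the ecdysone receptor, to 49.9% of the control signal (adjusted p = 0.000358). EcR (0.41 ± 0.15, adjusted p = 0.0967) and br (0.41 ± 0.13 in its brightest probe set, adjusted p = 0.0590), an ecdysone-induced factor needed for Dronc induction in the salivary gland, were not called. The other br probe sets changed by 0.29, 0.28, -0.54 and -0.55, and none of them was called. In those with negative changes the first mutant array stood far below the other mutant arrays. It read 7.72 against 9.01 and 9.22, and 6.33 against 7.54 and 7.74. Eip93F, which is required for the death of the larval midgut and salivary gland, averaged 9.45 ± 0.24 in mutant animals and 9.20 ± 0.29 in control animals (SD, n = 3 each; adjusted p = 0.380).

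**Figure D5:**
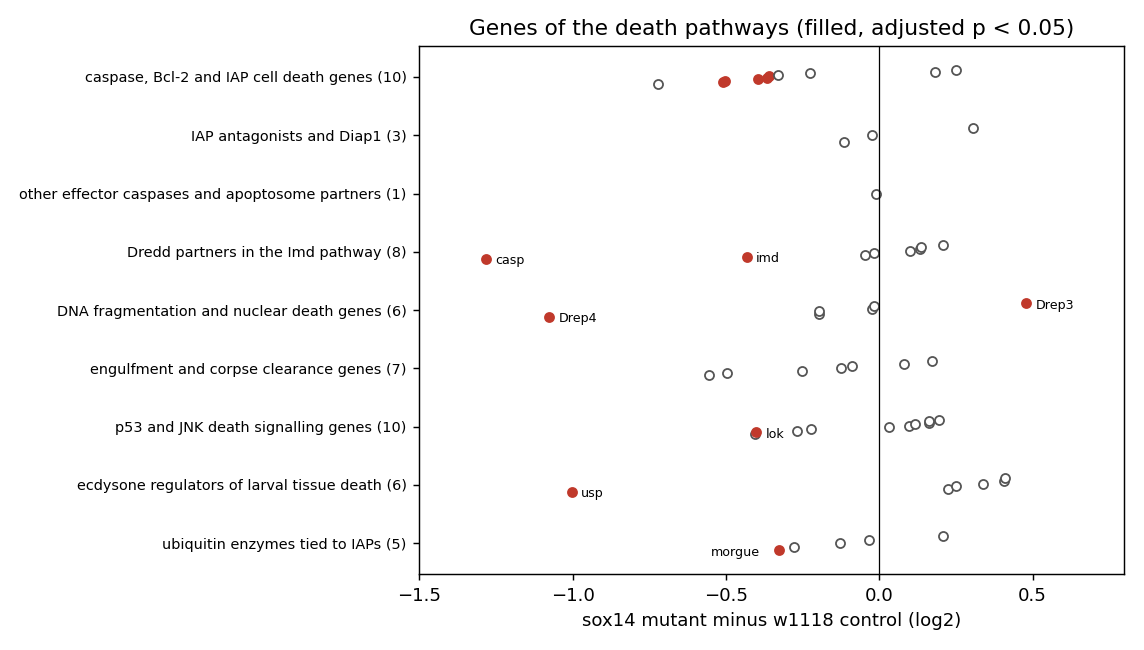
Change in the sox14 mutant relative to the w1118 control (x axis, log2) of each measured gene of the death pathways, 1 probe set per gene, by list (y axis, number measured in brackets). Filled points have an adjusted p under 0.05 and are named except in the top row, which holds the 10 cell death genes. casp, Drep4 and usp lie near or beyond -1, and Drep3 is the only filled point to the right of 0.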

How the data were processed

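Biotin-labelled RNA of whole prepupae was measured on Affymetrix Drosophila Genome 2.0 arrays, 3 per genotype. Per the submitters' processing notes, the authors ran RMA in Affymetrix Expression Console 1.1, and the deposited log2 values are its output. RMA removes background, equalises arrays and compresses differences of dim probe sets. The number of arrays limits the precision. Of 18952 probe sets, 183 Affymetrix controls were left out. The platform annotation gives 1 gene for 13647 of the other 18769, several for 402 and none for 4720, and 13544 were matched by gene identifier to RefSeq (Release 6 plus ISO1 MT) for names, chromosome arms and gene order. The sources used here do not state a genome build for the array.

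A linear model with moderated variances (limma 3.58.1, R 4.3.3) compared the genotypes on all 18769 probe sets. Tests were 2-sided, Benjamini-Hochberg adjusted over that whole table and called at 0.05. Changes are mutant minus control ± SE, intervals are 95% intervals from this fit, and group values are means ± SD. A gene was counted by its probe set with the highest mean, giving 11982 genes. The probe sets of Sox14, ced-6, lok and ImpL2, both of Drep3 and 1 of br are of the same shared type as that of Diap2. For each of them the annotation lists a single gene. The fit was tested on simulated data. The low range of an array was the lower 95% of its AFFX-Dm controls, 98 after 2 that differed by more than 1 between genotypes were dropped. The rule for named genes took all 10 cell death genes, Sox14 and, from each other list, up to 4 called genes, or the 2 with the highest mean where none was called. Fadd, Rel, Drep1, grim, p53, EcR, br, Eip93F and the tissue markers named outside it were chosen after their values were seen. The cell death genes and the lists were chosen with earlier results of these data known. The main fit did not pair the samples by replicate number. The deviations of same-numbered arrays from their group means correlated at 0.17, -0.10 and -0.02, and those of differently numbered arrays at -0.26 to 0.26. With 3 arrays per genotype these values cannot decide whether same-numbered samples were handled together. Alternatives were leaving out each array in turn, a threshold of 0.01, array weights, quantile normalisation, median centring, the replicate block, trended robust variance, averaging the probe sets of a gene and dropping the dimmest 40%.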

Additional observations from a re-analysis of the deposited data

Results flagged for a closer look

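On the first mutant array the 18S rRNA control probe sets, which no comparison of genes used, averaged 12.18. They averaged 7.94 and 7.84 on the other mutant arrays and 7.56 to 7.87 on the 3 control arrays. Of the 3 mutant arrays, this one gave the value farthest from the mean of the other two in 5 of the 11 probe sets of the cell death genes. It was the lowest for the dimmer Dark probe set and Debcl and the highest for the brighter Dark probe set, Damm and Buffy. The second and the third mutant array gave the farthest value in 3 probe sets each. The same count over all probe sets is not given, so 5 against 3 and 3 does not set the cell death genes apart. The part of the first mutant array in their values was not tested beyond the fits without it.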

How the results depend on the processing

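Of the 142 values that the alternatives gave for the 11 probe sets of the cell death genes, 0 changed sign, 112 stayed on the same side of the threshold, 22 lost the call and 8 gained it. The replicate block, trended robust variance and the dropping of dim probe sets left each change as it was, so no sign could move there. Averaging did the same for genes with 1 probe set. Leaving out 1 array could not reverse genes whose groups did not overlap. All 22 losses fell on the 5 called genes, since only these could lose a call. The 142 values leave out the threshold of 0.01, at which none of the 10 was called. The count of genes called lower, 5 with all arrays, was 4 to 7 with the other normalisations, variance models, filters and probe set rules. Among all genes the share called lower was 12% to 16.1%, the latter with median centring, which gave the 7. With the dimmest 40% of probe sets dropped it was 17.3% of the 9212 genes left. The count was 0 at a threshold of 0.01 and between 0 and 4 with 1 array left out (for all calls likewise 0 to 4, since none was called higher). With 0 called in limma at 0.01, 8 of the 10 had an unadjusted p under 0.05, as did 38.4% of all genes. The replicate block, which pairs the arrays by number although it is not known that they were paired, gave 4 (Buffy, Damm, Dronc and Strica). It changed the calls of Diap2 (adjusted p = 0.0704), Debcl (0.0506), morgue (0.0618) and Drep3 (0.0503), each lost, and of Damm (0.00662) and the dimmer Drep3 probe set (0.0115), both gained. Of same-numbered arrays, only those with number 1 had a correlation above 0.1. Among the other named genes, the uncalled values of eIF3m and HtrA2 changed sign in 3 instances. eIF3m read 0.028 with quantile normalisation and -0.028 to 0.0094 over the fits with an array left out, and HtrA2 -0.26 to 0.0072 over those fits. Drep3, called higher at 0.48 in its brighter probe set, was -0.023 as the mean of its probe sets (adjusted p = 0.913), so the call was lost. The loss of calls with arrays left out came with fewer samples in each fit. The median change of all probe sets was -0.07 with median centring and -0.03 without. grim lay in the low range on every array and Damm above it on every array. RMA compresses differences of dim probe sets, and how far it did so for these genes was not tested.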
